A study of Mus musculus with 59 samples.

Results

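*Sox1*, *Sox3*, *Sox4*, *Sox6*, *Sox9*, *Sox10*, *Sox11*, *Sox12*, *Sox18* and *Sox21* encode SOX transcription factors that are not part of the core pluripotency network built around *Sox2*, and they are described here in mouse embryonic stem cells (ESCs) and in the embryoid bodies (EBs) that form from them. The members were found by symbol, and all 10 of them are among the 24391 gene symbols in each library. RNA-seq of 59 libraries from 6 conditional ESC lines was used. Every line carries ERT2-Cre, a recombinase that 4-OHT switches on, and every line has control libraries without 4-OHT and mutant libraries with it, so loss of the targeted gene and exposure to 4-OHT cannot be told apart. The *Pcgf1* line (19 libraries) is Pcgf1f/f in controls and Pcgf1delta/delta in *Pcgf1*-KO cells. The Ring1 point-mutant line (8 libraries) has Ring1apm/pm in every library, with Ring1b in controls and Ring1bpm/pm after 4-OHT. The other lines (8 libraries each) are Pcgf2f/f;Pcgf4f/f, Pcgf3f/f;Pcgf5f/f, Pcgf6f/f, and Ring1a-/-;Ring1bf/f, which lacks *Ring1a* in controls too, and 4-OHT turns their floxed alleles into delta/delta. ESCs were kept with LIF and kinase inhibitors on mouse embryonic fibroblasts (MEFs), and EBs had spent 2 days in suspension without them. Levels are TPM, transcript abundance per length scaled to the same sum in every library, and they do not tell how many reads lie behind a value.

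SOX proteins bind DNA through an HMG box and fall into subgroups with related sequences. SOXB1 proteins (SOX1, SOX3) hold cells in a neural progenitor state, the SOXB2 protein SOX21 counteracts SOXB1 targets, and SOXC proteins (SOX4, SOX11, SOX12) act in progenitors and early neurons. SOX6 (SOXD) and SOX9 (SOXE) act in cartilage, SOX10 (SOXE) in the neural crest, and SOX18 (SOXF) in the endothelium. Polycomb repressive complex 1 (PRC1), which contains RING1A or RING1B and 1 of several PCGF proteins, marks H2A with ubiquitin at many such developmental genes and keeps them low in ESCs. By the ChIP-seq classes of the study, *Sox3* and *Sox4* lose RING1B binding from ESCs to EBs, *Sox1*, *Sox6*, *Sox9*, *Sox10*, *Sox18* and *Sox21* keep it at a like level, and *Sox11* and *Sox12* are in no class.

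On mm9, the genome build of the files, *Sox4* lies on chr13:29040788-29045582 and *Sox21* on chr14:118632454-118636252, both on the minus strand. In the GENCODE annotation a lincRNA gene on the opposite strand overlaps each of them, and a protein-coding gene on the opposite strand overlaps *Sox6*. Whether the counting used strand is not given in the sources used here, so reads of these partners may be part of the values. The promoters of *Sox4* and *Sox21* are shown because their RNA moved in opposite directions between control ESCs and EBs. Each is the 250 bases before the annotated start (RefSeq, GRCm38.p6, 5′ to 3′ on the minus strand), at chr13:28953700-28953949 for *Sox4* and chr14:118237031-118237280 for *Sox21*. Capitals mark matches on either strand to any of 4 motifs, which do not overlap here. These were the GC box (spelled GGGCGG), the CCAAT box (5 letters, as in its name), the TATA box (spelled TATAAA) and the SOX core motif (spelled ATTGTT).
Sox4: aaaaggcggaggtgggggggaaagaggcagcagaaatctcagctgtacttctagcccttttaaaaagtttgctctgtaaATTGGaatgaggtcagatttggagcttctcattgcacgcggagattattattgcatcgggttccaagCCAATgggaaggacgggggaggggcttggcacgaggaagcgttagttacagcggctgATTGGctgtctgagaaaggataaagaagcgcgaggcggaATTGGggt
Sox21: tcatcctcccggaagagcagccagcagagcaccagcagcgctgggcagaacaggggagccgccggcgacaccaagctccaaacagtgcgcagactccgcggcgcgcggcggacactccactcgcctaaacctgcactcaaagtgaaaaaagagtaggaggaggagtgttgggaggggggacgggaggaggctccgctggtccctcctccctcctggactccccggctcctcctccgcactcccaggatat
The *Sox4* promoter held 4 CCAAT boxes, of which 3 read ATTGG, and no other of these motifs. The *Sox21* promoter held none of the 4 motifs, as did 33.5% of all 32851 promoters in the table. A CCAAT box was in 33.8% of them, at least 4 were in 0.84%, a GC box was in 32.7%, a TATA box in 12.4% and a SOX core motif in 9.42%. Of the 10 members, 6 had an entry (*Sox1*, *Sox4*, *Sox6*, *Sox11*, *Sox12*, *Sox21*), and *Sox6* had several starts. *Sox12* had 35 CpG dinucleotides in its 250 bases and *Sox1* 29, more than 97.0% and 93.2% of all promoters. *Sox11* and *Sox21* had 17 each and *Sox4* had 11, against a median of 6 over all promoters. The presence or absence of these letters is a description of the windows.

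Before the levels, the libraries need description. In the *Pcgf1* line, the deleted gene *Pcgf1* was at 7.30 to 16.6 TPM in the control libraries and at 0.627 to 2.77 TPM in the *Pcgf1*-KO libraries, with no overlap. In the Ring1 point-mutant line a level cannot check the mutation. In the remaining lines, 21 of 32 libraries have a file name that states another condition than the sample label, so most detail is given for the *Pcgf1* and Ring1 point-mutant lines, where all 27 names and labels agree. Stage markers matched the labels there: *Fgf5*, a gene of the formative state that EBs enter, was at most 0.703 TPM in ESC libraries and at least 2.91 TPM in EB libraries, and *Klf4*, a naive pluripotency gene, was at least 262 TPM in ESC and at most 122 TPM in EB libraries. By the library identifiers in the file headers, replicates of the *Pcgf1* line fall into separate series (replicate 1, replicates 2 and 3, replicates 4 and 5). Nothing says that replicates are separate cultures, so *p*-values measure the spread between these libraries, which may be technical. In bulk RNA, fewer expressing cells and less RNA per cell cannot be told apart.

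In control cells of the *Pcgf1* line, 6 of the 10 SOX genes rose from ESCs to EBs, and *Sox21* alone among them fell. *Sox3* and *Sox4*, which act in neural and other progenitors, rose to levels 27.4 and 8.3 times those of ESCs by the ratio of mean TPM. Tests were made with limma on log2(TPM + 0.1) across all 20594 genes above 0 in the line, with Benjamini-Hochberg adjustment. On this scale a difference understates the change of low genes. By this test 24.9% of all genes were called (11.5% higher and 13.4% lower in EBs), against 7 of 10 SOX genes. The libraries of both stages did not overlap for 5 of the 10 and for 21.7% of all genes. The median difference of the 10 genes was 1.65, beside -0.0045 for all genes. Of the 10 other SOX genes in the files, *Sox13* rose, *Sox15* and *Sox17* fell, and 7 were not called, *Sox2* among them (-0.58, adjusted *p* = 0.084).

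**Figure D1:**
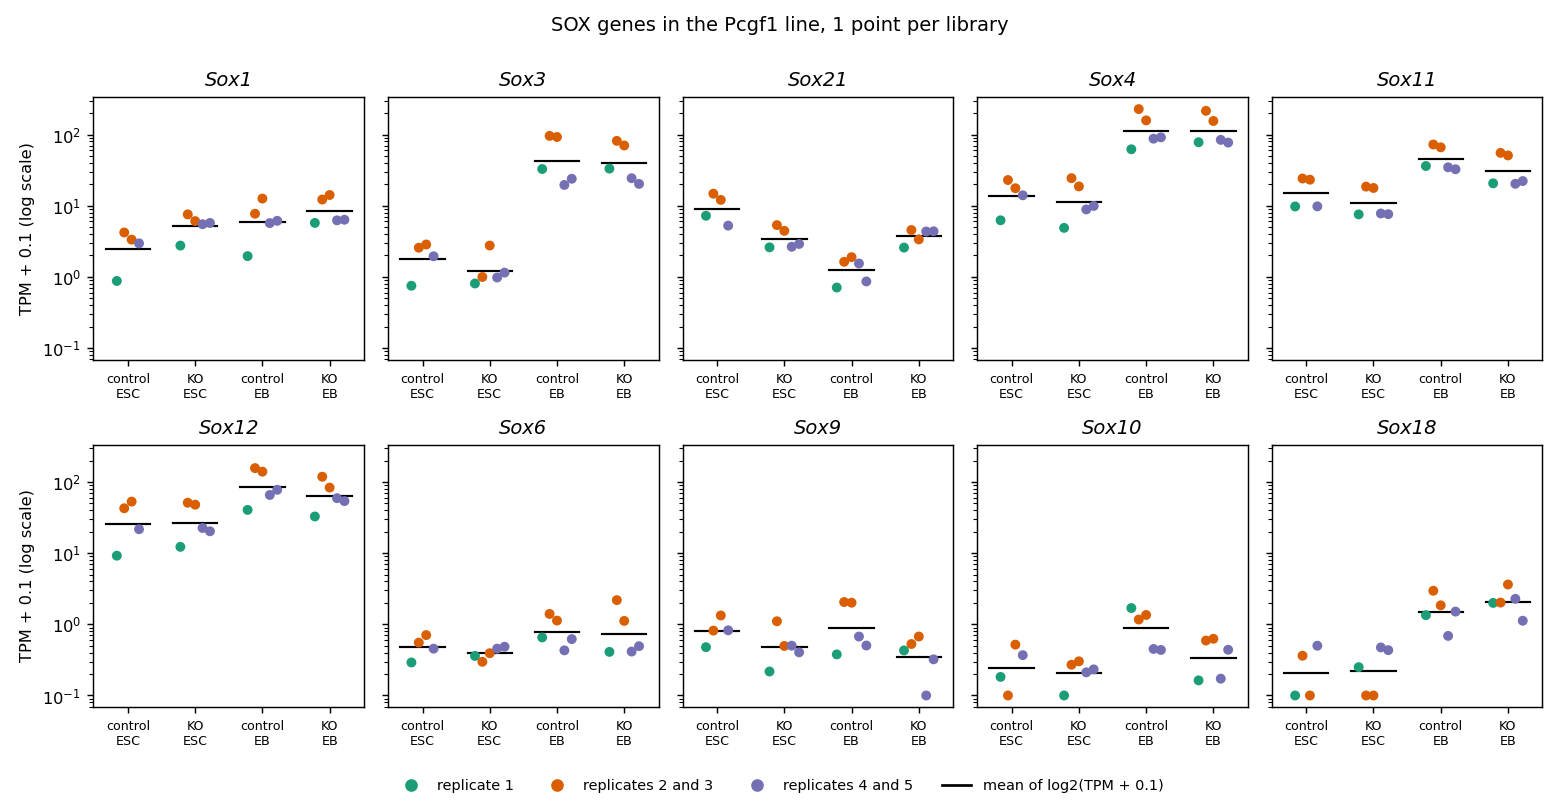
Levels of the 10 SOX genes in the *Pcgf1* line, as TPM + 0.1 on a log axis, with 1 point per library (4 control ESC and 5 of each other group) coloured by replicate number, and a bar at the mean of log2(TPM + 0.1) of each group. *Sox3* and *Sox4* are higher in every EB library than in every ESC library, and *Sox21* is lower in all control EB libraries than in all control ESC libraries.

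Among SOXB1 genes, *Sox3*, a gene of neural progenitors, was low in ESCs, with 0.65, 2.47, 2.75 and 1.85 TPM in control replicates 1 to 4. In control EBs it was at 32.7, 95.7, 92.2, 19.5 and 23.8 TPM in replicates 1 to 5. Every EB library was above every ESC library, although EB libraries differed among themselves, with replicates 2 and 3 high and 4 and 5 low. The difference was 4.55 (SE 0.56, adjusted *p* = 1.16e-05, limma). *Sox1*, the other SOXB1 gene and an early marker of neural plate cells, was at 0.775, 4.10, 3.23 and 2.85 TPM in control ESCs and at 1.86, 7.61, 12.5, 5.60 and 6.03 TPM in control EBs. The groups overlapped through replicate 1, the lowest library of each. The difference of 1.24 did not pass (adjusted *p* = 0.0874). It passed when the replicate number was a block in the fit (1.26, adjusted *p* = 0.00107), since *Sox1* was higher in EBs in all 4 same-numbered pairs, by 0.88 to 1.92.

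*Sox21*, the SOXB2 gene, was at 7.12, 14.6, 11.96 and 5.15 TPM in control ESCs and at 0.607, 1.53, 1.79, 1.44 and 0.762 TPM in control EBs. All control EB libraries were below all control ESC libraries, by -1.77 to -3.35 within same-numbered pairs. The difference was -2.87 (SE 0.37, adjusted *p* = 1.74e-05, limma), so that mean TPM in EBs was 0.126 of that in ESCs. No other SOX member was called lower.

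Among SOXC genes, *Sox4*, which acts in many progenitor cells, was at 6.13, 22.9, 17.5 and 13.9 TPM in control ESCs. In control EBs it was at 62.0, 228, 158, 87.3 and 91.2 TPM. The lowest EB library was above the highest ESC library, and the same-numbered pairs differed by 2.64 to 3.32. The difference was 3.03 (SE 0.49, adjusted *p* = 0.000165, limma). *Sox11*, which acts in early neurons, was at 9.66, 24.0, 23.1 and 9.69 TPM in control ESCs and at 36.0, 72.4, 66.0, 34.5 and 32.4 TPM in control EBs, again without overlap (1.58, SE 0.42, adjusted *p* = 0.00985). *Sox12*, the broadly expressed SOXC gene, was at 9.12, 42.7, 53.0 and 21.6 TPM in control ESCs and at 40.5, 157, 140, 65.7 and 77.6 TPM in control EBs. These groups overlapped, since EB replicate 1 lay below ESC replicates 2 and 3, but EBs were higher in all 4 pairs (1.72, SE 0.54, adjusted *p* = 0.0253). The call on *Sox12* was lost without control ESC replicate 1 or 4 or control EB replicate 2 or 3, with adjusted *p* of 0.106, 0.0605, 0.065 and 0.063.

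The remaining genes were low throughout. *Sox18*, an endothelial regulator, was at 0, 0.262, 0 and 0.401 TPM in control ESCs and at 1.25, 2.86, 1.75, 0.588 and 1.41 TPM in control EBs. It was listed at 0 in 2 ESC libraries, and all EB libraries were above all ESC libraries (2.86, SE 0.61, adjusted *p* = 0.00196). *Sox10*, the neural crest gene, had a group mean under 1 TPM throughout, with a range of 0 to 0.419 TPM over control ESC and 0.337 to 1.59 TPM over control EB libraries, and passed the test with overlapping groups (1.86, adjusted *p* = 0.0249). *Sox9*, which directs cartilage formation, ranged from 0.377 to 1.23 TPM in the 4 control ESC libraries and from 0.278 to 1.96 TPM in the 5 control EB libraries, while *Sox6*, its partner in cartilage, lay at 0.191 to 0.606 and 0.33 to 1.3 TPM. Neither was called, with differences of 0.12 (95% interval -1.19 to 1.44) and 0.70 (-0.33 to 1.73).

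Genes linked to these factors did not all move with them. The 11 neural progenitor genes summed to 18.8 to 34.3 TPM in control ESC and 29.3 to 74.5 TPM in control EB libraries. The 6 neuronal genes summed to 129 to 269 TPM in control ESC and 86.6 to 124 TPM in control EB libraries, lower where *Sox11* was higher. Of 10 neural crest genes, *Ets1* and *Pax3* rose from control ESCs to EBs and *Tfap2a* fell, and of 6 cartilage genes *Col2a1*, *Col9a1* and *Comp* rose. Of 6 endothelial genes tested, none rose and *Pecam1*, which ESCs also express, fell. The 11 fibroblast genes, which MEFs express, summed to 216 to 299 TPM in control ESC and 49.4 to 97.0 TPM in control EB libraries. They were thus lower where *Sox3*, *Sox4*, *Sox11*, *Sox12* and *Sox18* were higher, and higher where *Sox21* was higher. *Col1a1*, *Col1a2*, *Col3a1*, *Postn* and *Prrx1* fell, *Dcn*, *Mmp2* and *Thy1* rose, and none of the 11 was at 0 in all libraries of either group. Their part in the SOX levels was not tested.

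The order of levels, which TPM allows since it is per length, was led in control ESCs by *Sox12* (31.6 ± 19.9 TPM, mean ± SD, n = 4), *Sox11* (16.6 ± 8.03), *Sox4* (15.1 ± 7.02) and *Sox21* (9.72 ± 4.36). *Sox1* (2.74 ± 1.41) and *Sox3* (1.93 ± 0.93) followed, and the other members were under 1 TPM. The SDs of the 4 leading genes overlapped, as did those of *Sox1* and *Sox3*, but they hold a spread between libraries that the genes share. Within every control ESC library *Sox12* was above *Sox4* and *Sox21*, *Sox11* was above *Sox21*, and *Sox1* was above *Sox3*. Every control ESC library had *Sox21* at 5.15 TPM or more and *Sox1* at 4.10 TPM or less. In control EBs it was led by *Sox4* (125 ± 67.4 TPM, n = 5), *Sox12* (96.1 ± 49.9), *Sox3* (52.8 ± 37.9) and *Sox11* (48.3 ± 19.3), while *Sox21* (1.23 ± 0.514) came after *Sox1* (6.72 ± 3.86) and *Sox18* (1.57 ± 0.837). The SDs of the 4 leading genes overlapped here too. Within every control EB library, however, *Sox4* was above *Sox12*, and *Sox12* was above both *Sox3* and *Sox11*, whose own order varied.

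Much of this spread followed the library series. Within groups, replicates 2 and 3 were above the others by 1.22 to 1.41 on the log2 scale for *Sox3*, *Sox4*, *Sox9*, *Sox11* and *Sox12*, by 1.05 for *Sox1* and by 0.72 for *Sox21*, against a median of 0.25 over 13400 genes with a mean of at least 1 TPM. For *Sox6* and *Sox10* it was 0.86 and 0.70, while *Sox18* did not share this shift (-0.10). The difference of *Sox12* was larger than that of 97.4% of these genes. These libraries also had more genes at 0 (8409 to 9139) than replicate 1 (7949 to 8164) and replicates 4 and 5 (6241 to 7663). Without replicates 2 and 3, a choice made after seeing the data, 6 of 10 SOX genes were called in control EBs against ESCs, with *Sox3* at 4.36, *Sox4* at 3.08 and *Sox21* at -2.65, and *Sox10* was no longer called. Shares of all genes are given only for the fit to all libraries without a block. Counts under this and other alternatives have no such share beside them.

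In *Pcgf1*-KO cells the same comparison called 4 of 10 SOX genes (18.3% of all genes), all of them higher in EBs (8.13% of all genes), and *Sox21* was not among them. The median of the 10 genes was 1.07, beside 0.00 for all genes. *Sox3* was at 0.707, 0.896, 2.65, 0.878 and 1.05 TPM in *Pcgf1*-KO ESCs and at 33.1, 81.4, 70.1, 24.2 and 20.2 TPM in *Pcgf1*-KO EBs (5.03, SE 0.53, adjusted *p* = 2.31e-06). *Sox4* was at 4.78, 24.3, 18.6, 8.75 and 9.82 TPM in ESCs and at 77.9, 215, 155, 84.1 and 77.0 TPM in EBs (3.28, SE 0.46, adjusted *p* = 5.74e-05). For both genes the 5 EB libraries lay above the 5 ESC libraries. *Sox11* (1.495, adjusted *p* = 0.0126) and *Sox18* (3.23, adjusted *p* = 0.000563) rose without overlap as well, so that 4 of the 10 did not overlap between the stages, beside 15.2% of all genes. *Sox18* was listed at 0 in *Pcgf1*-KO ESC replicates 2 and 3 and reached 0.373 TPM at most in these ESCs, against 1.02 to 3.53 TPM in *Pcgf1*-KO EBs. *Sox12* (1.25, adjusted *p* = 0.105) and *Sox1* (0.66, adjusted *p* = 0.41) were higher in EBs in all 5 pairs and were called with the replicate block (adjusted *p* = 1.73e-06 and 0.0431), which brought the count to 6.

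**Figure D2:**
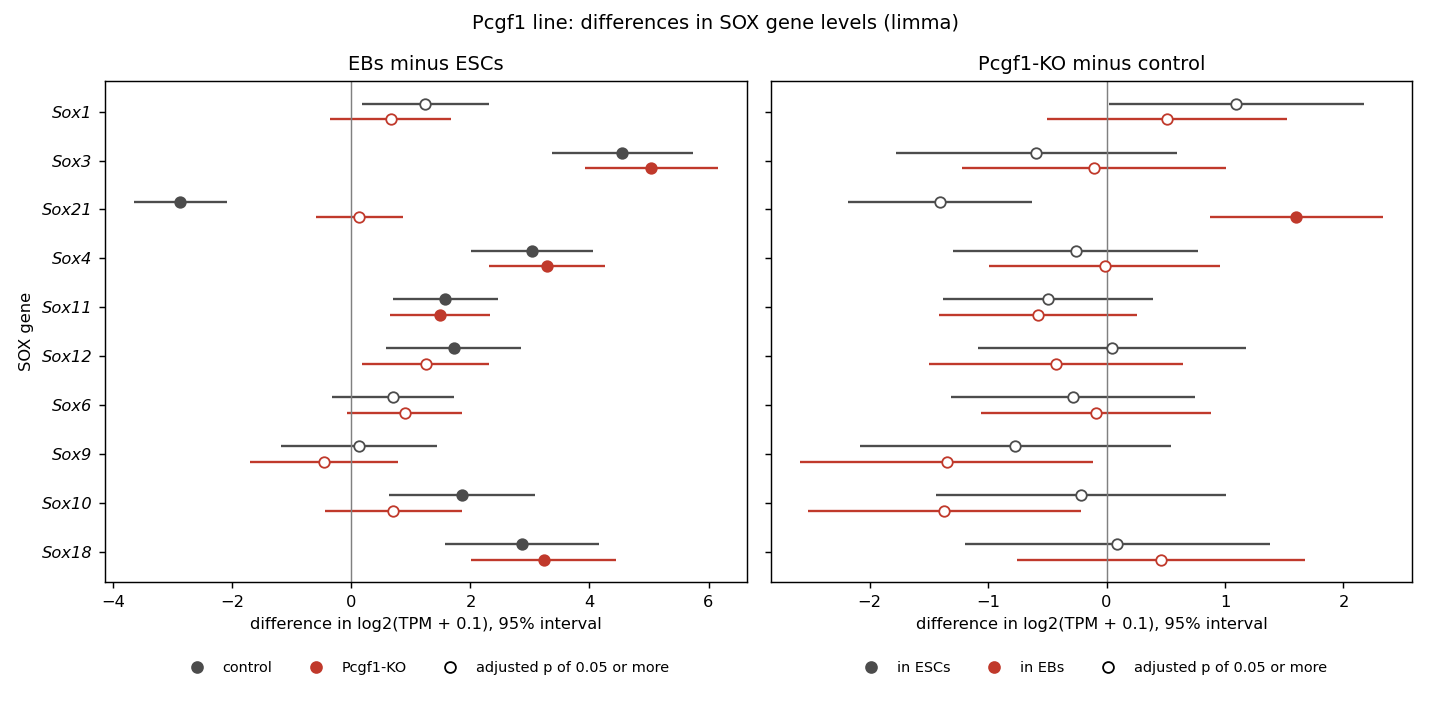
Differences in log2(TPM + 0.1) of the 10 SOX genes in the *Pcgf1* line with 95% intervals (limma, no block), with EBs minus ESCs on the left (dark control, red *Pcgf1*-KO) and *Pcgf1*-KO minus control on the right (dark ESCs, red EBs). Filled points have an adjusted *p* under 0.05. *Sox21* lies at -2.87 in control and 0.13 in *Pcgf1*-KO cells on the left, and at -1.40 in ESCs and 1.60 in EBs on the right.

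*Sox21* had the largest difference between the stage changes of *Pcgf1*-KO and control cells among the 10 members. In *Pcgf1*-KO ESCs it was at 2.497, 5.24, 4.33, 2.55 and 2.80 TPM, and in *Pcgf1*-KO EBs at 2.48, 4.45, 3.26, 4.24 and 4.27 TPM. These groups overlapped, and EBs were higher in 2 pairs and lower in 3 (0.13, 95% interval -0.60 to 0.87). The difference of the EB-minus-ESC changes, *Pcgf1*-KO minus control, was 3.01 (SE 0.51) and did not pass over all genes (adjusted *p* = 0.0671). In that test 0 of 10 members and 0.00486% of all genes were called, and 1 member, *Sox21*, had an unadjusted *p* under 0.05. With the replicate block it was 2.96 (95% interval 2.16 to 3.77, adjusted *p* = 0.00295) and was called, as it was with a pseudocount of 1, with the filter on low values, with median-of-ratios scaling and with a library series term. Without replicates 2 and 3 it was not called (3.08, adjusted *p* = 0.163).

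**Figure D3:**
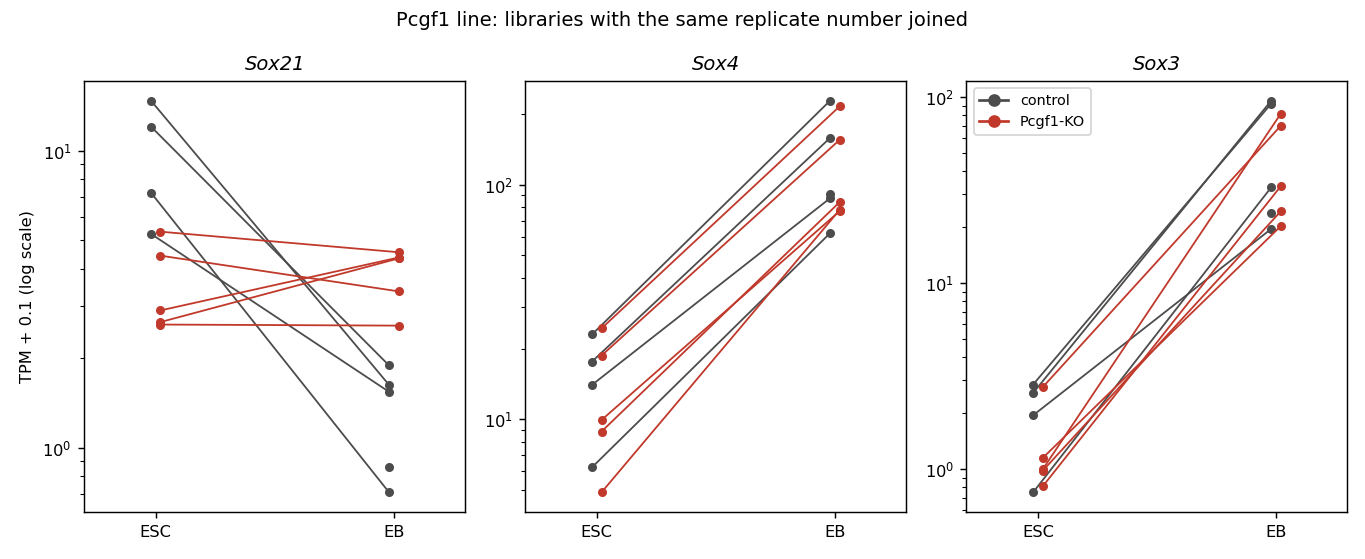
*Sox21*, *Sox4* and *Sox3* in the *Pcgf1* line, as TPM + 0.1 on log axes, with lines joining the ESC and EB libraries of the same replicate number in control (dark) and *Pcgf1*-KO (red) cells. A control EB point without a line is replicate 5, which has no control ESC partner. All 4 control lines of *Sox21* go down and the 5 *Pcgf1*-KO lines stay between 2.48 and 5.24 TPM, while every line of *Sox4* and *Sox3* goes up.

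Between genotypes within a stage, few SOX genes were called by the fit without the replicate block. In EBs, *Sox21* was higher in *Pcgf1*-KO than in control libraries without overlap, by 0.83 to 2.34 in the 5 pairs (1.60, SE 0.35, adjusted *p* = 0.0216, limma), and the ratio of mean TPM was 3.05. The groups did not overlap for 3.05% of all genes, and *Sox21* was the only member among them. It was also the only member called, beside 1.95% of all genes (1.08% higher). The call was lost without control EB replicate 1 or 5 or *Pcgf1*-KO EB replicate 4 or 5, with adjusted *p* of 0.0597, 0.051, 0.0637 and 0.0634. In ESCs, *Sox21* was lower in *Pcgf1*-KO cells in all 4 pairs, by -0.99 to -1.48, with control replicate 4 (5.15 TPM) below *Pcgf1*-KO replicate 2 (5.24 TPM). The difference of -1.40 (95% interval -2.18 to -0.63) did not pass (adjusted *p* = 0.105) and was called with the block (-1.36, adjusted *p* = 0.0117).

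In ESCs no member was called by limma without the block (0.641% of all genes), and 2 had an unadjusted *p* under 0.05. The groups overlapped for all 10, beside 4.66% of all genes whose groups did not. With the block 3 were called, *Sox21*, *Sox11* (-0.37, adjusted *p* = 0.0171) and *Sox1* (1.11, adjusted *p* = 0.0236). The share of all genes called with the block is not given, so this count is not set against all genes. *Sox1* was at 2.65, 7.45, 5.98, 5.39 and 5.62 TPM in *Pcgf1*-KO ESCs, above the control library of the same number in all 4 pairs, by 0.84 to 1.65. In EBs the block called 3 members as well, *Sox21*, *Sox11* (-0.58, adjusted *p* = 0.000267) and *Sox12* (-0.43, adjusted *p* = 0.0373). *Sox11* was at 20.5, 55.1, 50.8, 20.2 and 22.1 TPM in *Pcgf1*-KO EBs, below the control library in all 5 pairs, while the unpaired groups overlapped (adjusted *p* = 0.686 without the block). *Sox12* was at 32.7, 119, 83.4, 59.2 and 53.9 TPM in *Pcgf1*-KO EBs, also below control in all 5 pairs, by -0.15 to -0.74. Without replicates 2 and 3, *Sox11* was lower in *Pcgf1*-KO EBs also without the block (-0.71, adjusted *p* = 0.0144).

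*Sox4* and *Sox3* were not called between genotypes in either stage. For *Sox4* in EBs the difference was -0.02 with a 95% interval of -0.99 to 0.96, which the block narrowed to -0.31 to 0.28. For *Sox3* in EBs it was -0.11 (-0.78 to 0.56 with the block). Both intervals span 0 and leave room for a difference in either direction. *Sox9* and *Sox10* had larger estimates in EBs, -1.35 and -1.37, and both were lower in 4 of 5 pairs, with an adjusted *p* of 0.351 and 0.284. *Sox10* was at 0.063 to 0.5265 TPM in *Pcgf1*-KO EBs. *Sox9* was listed at 0 in *Pcgf1*-KO EB replicate 4, and its other values there were 0.222 to 0.574 TPM. With the library series as a term, *Sox9* was called lower in *Pcgf1*-KO EBs (adjusted *p* = 0.0491).

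Other gene groups differed between genotypes in few members. In EBs *Olig2* and *Twist1* rose with loss of *Pcgf1*, each the only called gene of its list (11 neural progenitor and 10 neural crest genes). Among 10 naive ESC genes *Nr0b1* and *Tfcp2l1* were higher in *Pcgf1*-KO EBs, and 9 of 10 had a positive difference (median 1.21). These genes, which mark ESCs, summed to 312 to 692 TPM in control and 428 to 1307 TPM in *Pcgf1*-KO EB libraries, beside the higher *Sox21* there. The fibroblast genes summed to 16 to 33.2 TPM in *Pcgf1*-KO EBs, below the 49.4 to 97.0 TPM of control EBs, with *Lum* at 0 in all *Pcgf1*-KO EB libraries and *Mmp2* and *Thy1* called lower. The part of either group in the levels of *Sox21* was not tested.

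Across the 19 libraries of the *Pcgf1* line, the genes whose log2(TPM + 0.1) was most like that of a SOX gene differed by member. For *Sox3* they were *Dnmt3a* (Pearson r = 0.98), *AA388235* and *Pdzd4* (0.98 each), and for *Sox4* they were *Ext1*, *Myrf* and *Cgn* (0.98 each). For *Sox11* they were *Gtf2i*, *Ldlrad3* (0.99 each) and *Jph1* (0.98), and for *Sox12* *Znf512b* (0.98), *Plekha5* and *Map7d1* (0.97 each). *Sox21* was most like *Prdm16* (0.92), *Klhl2* and *Plekha2* (0.88 each), and *Sox1* like *Rrp9* (0.93), *Dph2* and *Ap5z1* (0.92 each). These values, picked from 13400 genes, describe points that share a stage, a genotype and a library series.

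In the Ring1 point-mutant line, *Sox4* and *Sox11* rose from control ESCs to control EBs, and *Sox3* did not pass the test. Here 2 of 10 SOX genes were called (4.73% of all 20279 genes tested), both higher in EBs (2.73% of all genes), and the median of the 10 was 0.81, beside 0.00 for all genes. *Sox4* was at 14.5 and 19.2 TPM in control ESCs and at 50.2 and 51.8 TPM in control EBs (1.61, SE 0.19, adjusted *p* = 0.00604, limma). *Sox11* was at 2.37 and 2.22 TPM in control ESCs and at 12.8 and 12.7 TPM in control EBs (2.42, SE 0.23, adjusted *p* = 0.00265). Both genes were apart between the stages, as were 8 of the 10 members and 46.0% of all genes, with 2 libraries a group. The call on *Sox4* was lost without control ESC replicate 1 or control EB replicate 1 or 2, with adjusted *p* of 0.0604, 0.0704 and 0.0779. *Sox3* was at 5.61 and 3.79 TPM in control ESCs and 8.68 and 9.72 TPM in control EBs (0.98, adjusted *p* = 0.104). With the block *Sox3* (adjusted *p* = 0.0422) and *Sox10* (1.99, adjusted *p* = 0.0434) were called too, which made 4. *Sox21* was at 2.09 and 1.86 TPM in control ESCs and at 0.72 and 1.42 TPM in control EBs, all lower in EBs, without a call (-0.89, 95% interval -1.82 to 0.03).

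**Figure D4:**
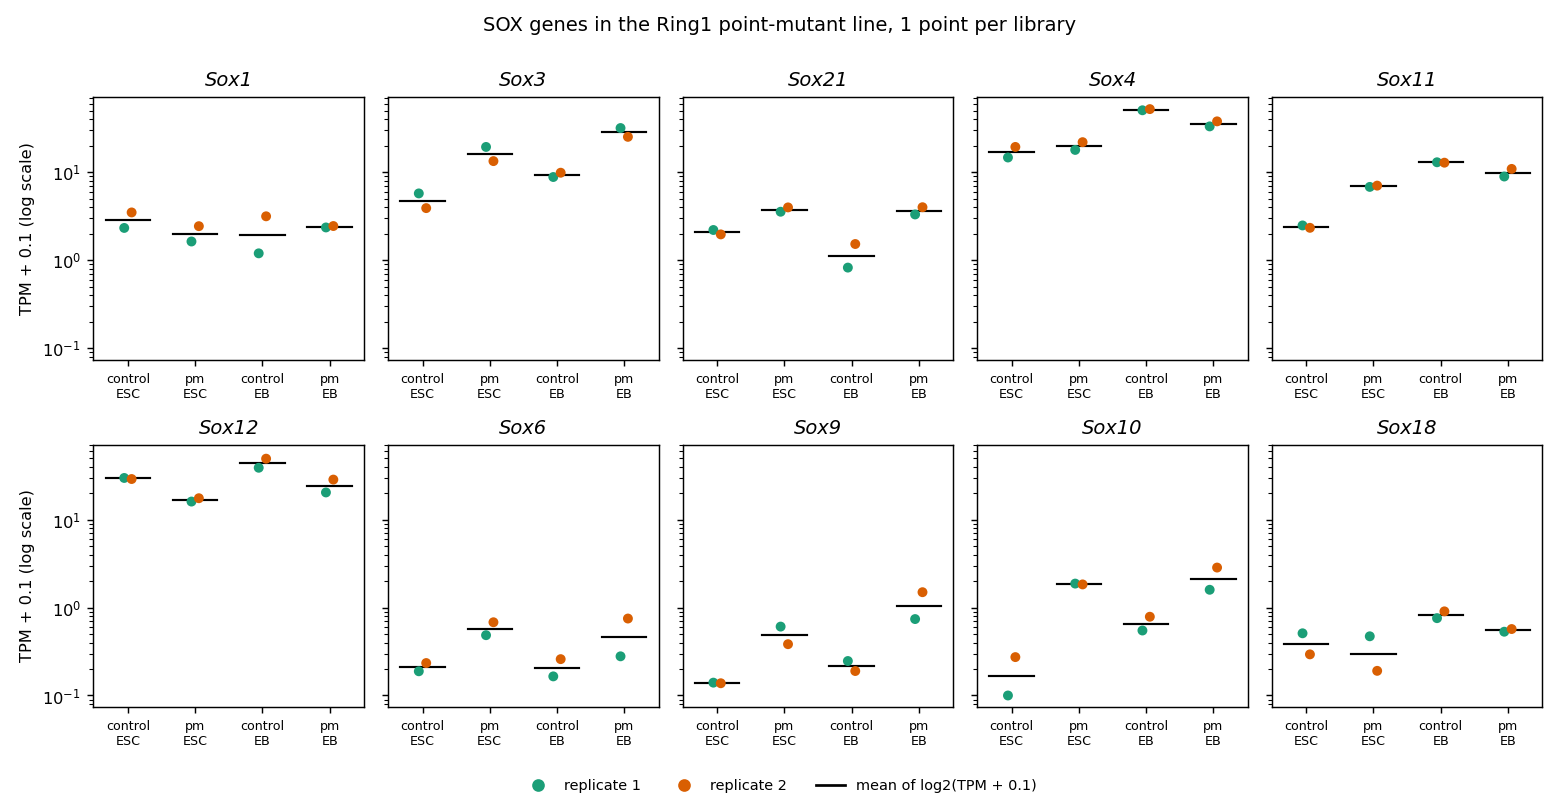
Levels of the 10 SOX genes in the Ring1 point-mutant line, as TPM + 0.1 on a log axis, with 1 point per library coloured by replicate number (2 per group, pm for Ring1bpm/pm after 4-OHT) and a bar at the mean of log2(TPM + 0.1). *Sox3*, *Sox6*, *Sox9*, *Sox10* and *Sox21* are higher in both mutant libraries than in both control libraries at each stage, and *Sox12* is lower.

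With Ring1bpm/pm, SOX genes of different subgroups were higher in ESCs. In mutant against control ESCs 3 of 10 were called (2.54% of all genes), all higher (2.34% of all genes). *Sox3* was at 19.2 and 13.2 TPM in mutant ESCs (1.76, SE 0.28, adjusted *p* = 0.0278, limma), above the 5.61 and 3.79 TPM of controls. *Sox11* was at 6.68 and 6.91 TPM (1.52, SE 0.23, adjusted *p* = 0.0248), again above both controls. *Sox10* was at 1.77 and 1.73 TPM in mutant ESCs and at 0 and 0.173 TPM in controls (3.48, SE 0.59, adjusted *p* = 0.031). *Sox12* was lower, at 15.9 and 17.4 TPM against 29.6 and 28.8 TPM, and was called with the block (-0.81, adjusted *p* = 0.0381) and with median-of-ratios scaling (-0.95, adjusted *p* = 0.0326), but not otherwise (adjusted *p* = 0.0941). The median of all genes was itself 0.12 higher in mutant ESCs and 0.10 higher in mutant EBs, a shift that lies in each of these differences. No direction of a member between mutant and control turned under the scaling. Groups did not overlap for 7 of 10 members, beside 45.4% of all genes.

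In mutant against control EBs 2 members were called (4.53% of all genes), both higher (3.76% of all genes). *Sox3* was at 31.5 and 25.02 TPM in mutant EBs (1.60, SE 0.28, adjusted *p* = 0.0266), above the 8.68 and 9.72 TPM of control EBs. *Sox9* was at 0.639 and 1.39 TPM against 0.147 and 0.0897 TPM (2.28, SE 0.49, adjusted *p* = 0.048). Its call was lost with a pseudocount of 1 (0.83, adjusted *p* = 0.0522). With the block *Sox21*, at 3.20 and 3.88 TPM in mutant EBs (1.70, adjusted *p* = 0.0306), and *Sox12*, at 20.2 and 28.3 TPM against 38.7 and 49.1 TPM (-0.86, adjusted *p* = 0.0255), were called too. In EBs 9 of 10 members did not overlap, beside 43.7% of all genes. *Sox4* was at 32.9 and 37.6 TPM, below both control EB libraries, without a call (-0.54, 95% interval -0.98 to -0.09, adjusted *p* = 0.165). Leaving out any library of this line ended every call between mutant and control in both stages, with adjusted *p* of 0.0524 to 0.217, so each of these calls rests on all 8 libraries.

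From mutant ESCs to mutant EBs no member was called by limma (0.133% of all genes), with or without the block, and 3 had an unadjusted *p* under 0.05. Groups did not overlap for 6 of 10, beside 39.5% of all genes. *Sox4* was at 17.7 and 21.8 TPM in mutant ESCs and 32.9 and 37.6 TPM in mutant EBs (0.84, adjusted *p* = 0.215), and *Sox11* was at 6.68 and 6.91 and at 8.80 and 10.8 TPM (0.51, adjusted *p* = 0.519). The difference between the changes in mutant and control cells was -1.91 for *Sox11* (95% interval -2.66 to -1.16) and did not pass (adjusted *p* = 0.196), nor did that of any other member (0.00986% of all genes called, and 2 members with an unadjusted *p* under 0.05).

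In the same line, *Sox1* spanned 1.09 to 3.37 TPM over the 8 libraries, with overlapping control and mutant libraries in ESCs and in EBs. It was lower in mutant ESCs in both same-numbered pairs, by -0.51 and -0.52, while 1 EB pair was higher and 1 lower. *Sox21* in mutant ESCs was at 3.44 and 3.86 TPM, above both control ESC libraries, without a call (0.85, 95% interval -0.07 to 1.78). *Sox9* in mutant ESCs was at 0.507 and 0.283 TPM against 0.0399 and 0.0378 TPM (1.80, adjusted *p* = 0.112). *Sox6* lay between 0.0649 and 0.649 TPM and *Sox18* between 0.0906 and 0.804 TPM, and neither was called in any comparison. At each stage *Sox6* was higher in both mutant libraries than in both control libraries.

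*Sox8*, the third SOXE gene and not a member, was higher in mutant than control cells in ESCs (3.41, adjusted *p* = 0.0237) and in EBs (2.29, adjusted *p* = 0.048). It is 1 of the 10 other SOX genes, and calls on the rest of them are not given for this line. These 10 summed to 375 and 418 TPM in mutant against 543 TPM in both control ESC libraries. In EBs they summed to 463 and 515 TPM in mutant against 558 and 677 TPM in control libraries. Some neural progenitor genes were higher in mutant cells, as *Sox8* was. Of 11, *Lhx2*, *Nes*, *Olig2* and *Zic1* rose in mutant ESCs and *Fabp7*, *Lhx2*, *Nes*, *Pou3f3* and *Zic1* in mutant EBs, none fell, and their medians were 2.09 and 2.06, beside 0.12 and 0.10 for all genes. Of 10 neural crest genes, *Ets1*, *Pax3* and *Twist1* rose in mutant ESCs and *Pax3* and *Twist1* in mutant EBs. Of 6 cartilage genes *Col2a1*, a target of SOX9, rose in mutant ESCs. The fibroblast genes summed to 90.5 and 90.6 TPM in mutant against 46.7 and 51.2 TPM in control ESCs, with none called and *Lum* at 0 in both groups. In EBs they summed to 97.5 and 107 TPM in mutant against 53.4 and 72.9 TPM in control libraries, and *Col1a1*, *Col1a2*, *Thy1* and *Twist2* rose. These sums were higher where *Sox3*, *Sox10* and *Sox11* (ESCs) and *Sox3* and *Sox9* (EBs) were higher, and their part was not tested. Stage markers also differed in mutant EBs. Of 6 formative genes, *Dnmt3a*, *Fgf5*, *Otx2* and *Pou3f1* were lower than in control EBs, and of 10 naive ESC genes, *Klf4*, *Nanog* and *Tbx3* were higher, with 9 of 10 differences positive (median 0.91). The naive genes summed to 1815 and 1919 TPM in mutant and 947 and 1196 TPM in control EBs, beside the higher *Sox3*, *Sox9* and *Sox21* of the mutant EBs, and the part of these markers in the SOX levels was not tested.

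In the other lines, the sample labels cannot be taken as they stand, and no count of calls is given for them. *Fgf5* and *Klf4* followed the stage in the file name in all 32 libraries. *Fgf5* was at most 0.816 TPM where the file name says ESC and at least 7.53 TPM where it says EB, and *Klf4* was at least 120 TPM in the former and at most 118 TPM in the latter. By label, in contrast, 7 of 16 libraries labelled ESC had *Fgf5* within the range of EB libraries of the *Pcgf1* and Ring1 point-mutant lines, and 6 of 16 labelled EB had it within the range of their ESC libraries. Of the targeted genes, *Pcgf6* in its line was at 67.1 to 105 TPM in the 4 libraries named control and at 34.7 to 46.3 TPM in the 4 named mutant, so that the libraries labelled mutant ESC, all named control, held the higher *Pcgf6* level. *Rnf2*, which encodes RING1B, spanned 62.9 to 95.1 TPM over the 8 libraries of its line, *Pcgf2* 39.6 to 55.0, *Bmi1* (also called *Pcgf4*) 4.12 to 10.03, *Pcgf3* 27.6 to 35.6 and *Pcgf5* 15.6 to 24.7 TPM, with none near 0. *Pcgf5* was lower in libraries named mutant (15.6 to 21.30 TPM) than in those named control (21.33 to 24.7 TPM). *Bmi1* was higher in those named mutant, at 7.01 to 10.03 against 4.12 to 5.47 TPM. *Rnf2* was at 78.1 to 95.1 TPM in libraries named mutant and 62.9 to 78.2 TPM in those named control. *Pcgf2* and *Pcgf3* overlapped between the named genotypes. Since groups were taken from labels alone, *Sox4* is listed below per library with both names, and some other members are given in part. No test between groups is reported for these lines, and where levels are ordered by the file name this is a description only.

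In the Ring1a-/-;Ring1bf/f line, *Sox4* was at 12.7 and 11.3 TPM in libraries labelled and named control ESC, 56.2 and 48.4 TPM in those labelled mutant ESC (named control EB), 21.6 and 22.4 TPM in those labelled control EB (named mutant ESC) and 46.1 and 43.6 TPM in those labelled and named mutant EB. *Sox21* was at 6.61 and 7.22, 1.19 and 1.31, 6.64 and 6.41, and 7.51 and 5.71 TPM for these same labels, so that the libraries labelled mutant ESC, which are named control EB, were lowest. *Sox3* was at 2.69 and 2.74 TPM in libraries labelled control ESC and at 31.6 to 41.7 TPM in all others. In the 4 libraries where label and name agree, *Sox10* was at 0.161 and 0.368 TPM in control ESCs and at 3.26 and 3.33 TPM in mutant EBs, a contrast that mixes stage and genotype.

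**Figure D5:**
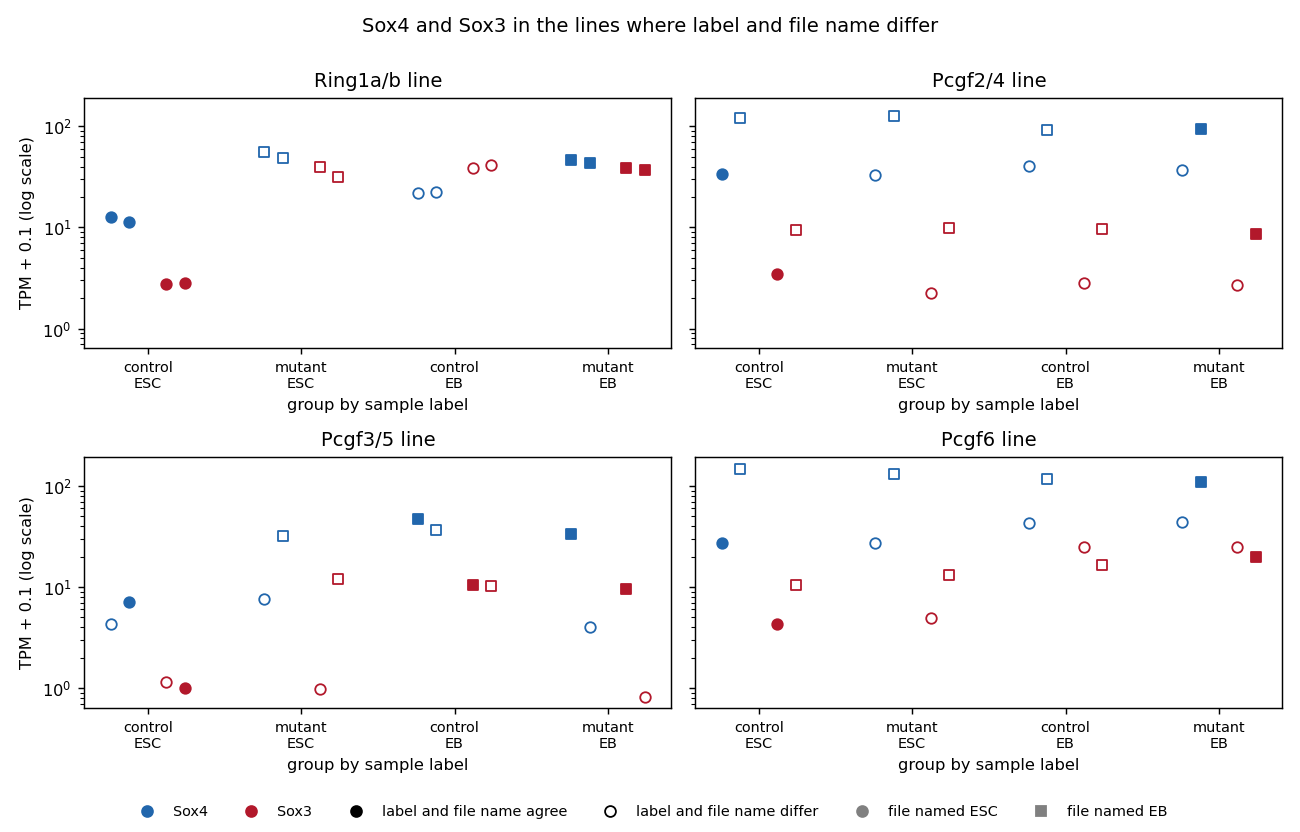
*Sox4* (blue) and *Sox3* (red) in the lines where labels and file names differ, as TPM + 0.1 on a log axis, with 1 point per library (2 per group) placed by sample label, filled where label and file name agree, round for files named ESC and square for files named EB. In the Pcgf2/4 and Pcgf6 lines each label holds a round and a square point, and the square *Sox4* points are the higher ones.

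In the Pcgf2f/f;Pcgf4f/f line *Sox4* was at 33.8, 33.1, 40.3 and 36.5 TPM in replicate 1 and at 121, 126, 92.4 and 93.6 TPM in replicate 2 of the libraries labelled control ESC, mutant ESC, control EB and mutant EB. All replicate 1 files of this line are named ESC and all replicate 2 files EB, so each label holds a library of both named stages. *Sox3* (2.13 to 3.37 against 8.42 to 9.70 TPM) and *Sox11* (11.2 to 13.2 against 27.4 to 28.2 TPM) were likewise higher in the libraries named EB. In the Pcgf6f/f line, where replicates 1 and 2 are again named ESC and EB, *Sox4* was at 26.9, 27.03, 42.6 and 44.3 TPM in replicate 1 and at 148, 132, 116 and 108 TPM in replicate 2, with labels ordered as before and the first pair of labels named control, the second pair mutant. In the Pcgf3f/f;Pcgf5f/f line *Sox4* was at 4.23 and 6.94, 7.47 and 32.1, 47.0 and 36.4, and 33.6 and 3.92 TPM by label. The library at 32.1 TPM, labelled mutant ESC, is named control EB, and that at 3.92 TPM, labelled mutant EB, is named mutant ESC. Where label and name agree in this line, *Sox3* was at 0.894 TPM in control ESCs, 10.4 TPM in control EBs and 9.52 TPM in mutant EBs, 1 library each, and *Sox21* was at 4.12, 1.13 and 0.837 TPM.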

How the data were processed

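RNA-seq of 59 libraries from 6 mouse ESC lines was used. The authors aligned reads to mm9 with STAR (version 2.5.2b) and counted reads on exons, and they deposited TPM values for gene symbols, whose step from counts is not given in the sources used here. Their fold changes came from DESeq2, which was not used here because the files hold no counts. Every library sums to 1000000 TPM, so the depth is unknown and no counting interval or floor is given. Libraries were grouped by sample labels. For 1 *Pcgf1*-KO EB library the title gives replicate number 4 and another label 5, and the title was followed.

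Values were taken as log2(TPM + 0.1), and limma (version 3.58.1, under R version 4.3.3) fitted them, 1 fit per line over its 4 groups with a variance trend, for genes above 0 in a library of the line. *P*-values were adjusted over all of them (Benjamini-Hochberg, threshold 0.05), and intervals are 95% intervals. All 10 members are named in the *Pcgf1* and Ring1 point-mutant lines, with fuller statistics from a group mean of 1 TPM upward. In the other lines only some members are given, by level alone. Listed genes are given by those called and, for some lists, a median or a sum. Similar genes, 3 per member with a group mean of at least 5 TPM, are the highest Pearson r among genes with a mean of at least 1 TPM. The members and lists were chosen with earlier results of these data known. Replicate numbers of the labels were checked as pairs by the correlation of deviations from group means. This r was 0.32 to 0.65 in 27 pairs of the *Pcgf1* line and 0.11 to 0.38 in 12 pairs of the Ring1 point-mutant line. With 2 libraries a group, replicates 1 and 2 give the same r by construction. Same-numbered libraries of the *Pcgf1* line also share a library series, which r does not separate from pairing. The main fit had no block, and the replicate block was run as an alternative in both lines. In the other lines label groups hold libraries whose file names give another stage or genotype, so the tests planned by label say nothing about these conditions and are not reported. Alternatives were a pseudocount of 1, a mean of at least 1 TPM, median-of-ratios scaling, the replicate block, a library series term, leaving out each replicate and, added after seeing the data, leaving out replicates 2 and 3 of the *Pcgf1* line. The libraries of a line share 1 estimate of the spread. The fit was tested on simulated data whose libraries varied independently, without a shared replicate or series effect. That test cannot tell how the fit behaves where libraries share such an effect. Tables were made in Python (version 3.11.15) with pandas (version 2.3.3), and plots with matplotlib (version 3.10.9). ChIP-seq was not used here beyond the study's RING1B classes of genes. A result on 1 gene list is not reported here.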

Additional observations from a re-analysis of the deposited data

Results flagged for a closer look

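*Sox21* in the *Pcgf1* line was flagged because its change from ESCs to EBs differed between *Pcgf1*-KO and control cells with the replicate block, by 2.96 on the log2(TPM + 0.1) scale (limma, adjusted *p* = 0.00295), with *Sox21* lower in EBs in 4 of 4 control pairs and in 3 of 5 *Pcgf1*-KO pairs. *Sox3* in *Pcgf1*-KO ESC replicate 3 was flagged because its 2.65 TPM stood far above the other libraries of the group, at 0.707 to 1.05 TPM. It was the only one flagged for this reason among 40 values of a member in a group, and chance flags about 1 in 20.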

How the results depend on the processing

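In the *Pcgf1* line, the calls in control EBs against ESCs (7) and *Pcgf1*-KO EBs against ESCs (4) stayed within 1.5 times under every alternative run, and leaving out each replicate gave 5 to 7 and 4 to 4. In *Pcgf1*-KO against control ESCs the count of 0 became 1 with a pseudocount of 1 or median-of-ratios scaling and 3 with the replicate block or the library series term, and leaving out each replicate gave 0 to 1. In *Pcgf1*-KO against control EBs the count of 1 became 3 with the block, 4 with the series term and 2 without replicates 2 and 3, and leaving out each replicate gave 0 to 1. For the difference between stage changes the count of 0 became 1 (*Sox21*) with a pseudocount of 1, the filter at a mean of 1 TPM, median-of-ratios scaling, the block or the series term, and leaving out each replicate gave 0 to 1. Here control ESC replicate 4 and *Pcgf1*-KO EB replicate 1 were those whose absence gave 1, and for *Pcgf1*-KO against control ESCs it was control ESC replicate 4. In the Ring1 point-mutant line, control EBs against ESCs (2) became 4 with the block, with 1 to 2 on leaving out each replicate. Mutant against control EBs (2) became 4 with the block and 1 with a pseudocount of 1. Mutant against control ESCs (3) reached 4 at most, and *Sox12* was called there with the block and with median-of-ratios scaling. On leaving out each replicate these became 0 to 0 and 0 to 0, with a lone library assumed to vary like the other groups. The cause was not tested. Beside the values given here and in the text, the block changed no other call on a member in these 2 lines, and no called difference of a member reversed under any alternative. The shares of all genes called under the alternatives are not given, so these counts are not set against all genes. Depth is unknown for all libraries, so levels near 0 TPM (*Sox6*, *Sox9*, *Sox10*, *Sox18*) carry no stated counting error.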
